A study of Mus musculus with 52 samples.

Results

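The genes described here are 40 genes of blood vessels, lymphatic vessels, pericytes and angiogenic signalling, followed across primary osteosarcomas, bone-forming tumours, of mice. They were taken by symbol from a given list, with no threshold on a measured value, and the list was drawn up with earlier results of these data known. All 40 were among the 20730 genes of the deposited count table, and all 40 passed the filter on low counts and were tested. Of the 40, 18 are pan-endothelial markers, 7 are receptors of angiogenic ligands, 2 are lymphatic markers, 9 are ligands or tip cell genes and 4 are pericyte markers. Bulk RNA of 52 libraries was sequenced from flash-frozen tumours of 3 genotypes, with 17 p53R245W/fl, 19 p53R172H/fl and 16 p53fl/fl libraries. Tumours of the p53R245W/fl and p53R172H/fl groups carry 1 missense allele of Trp53, the gene of the tumour suppressor p53, together with 1 conditional (floxed) allele. The p53fl/fl tumours carry floxed alleles only, so all 3 groups share the floxed allele. No source used here gives the Cre driver, the age of the mice or the site of each tumour.

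Endothelial cells line blood vessels and are recognised by junction proteins such as PECAM1 and VE-cadherin and by the transcription factors of the ETS and SOXF families. VEGF ligands act on the receptors FLT1, KDR and FLT4, angiopoietins act on TEK, and endothelial PDGF-B draws pericytes, which carry PDGFRB, onto the vessel wall. In bone, vessels run through the sites of bone formation and remodelling, and osteosarcomas are well supplied with blood.

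Total counts ranged from 21596798 to 67223388 per library, with a median of 51026968.5. The libraries were put into 3 sets by the prefixes of their column names, called A, B and C here, and set A held 0 p53R245W/fl libraries. Set A merges the prefixes FM and FNM, all p53fl/fl, with WFM and WFNM, all p53R172H/fl. Prefix and genotype therefore cannot be told apart within set A. Sets B and C have a single prefix each, and the labels do not explain the prefixes. All 18 set B libraries had a mutual best match in another set, always of the same genotype (Spearman 0.689 to 0.932 across 12858 genes, at most 0.447 for the next best). The labels give matched libraries different tumour numbers. Counting a matched pair once leaves 34 units, which are 11 p53R245W/fl, 13 p53R172H/fl and 10 p53fl/fl units. The pooled test counts matched libraries as separate samples, so a paired fit with library set and matched libraries as terms stands beside it. The p53R245W/fl libraries numbered 408, 494, 1580, 1831 and 1835 by tumour, which form 3 units (1835 with 408, 1831 with 494, and 1580), stood apart with Col1a1, the main collagen gene of bone, below 13 on the log2 scale of CPM (counts scaled to library size). The summed level of 6 osteoblast markers was 1908 to 8279 CPM in these 5 libraries and 30990.4 to 174014 CPM in the other 47 libraries. That sum holds Col1a1 and Col1a2, so the gap follows in part from how the 5 libraries were chosen. Of the markers other than collagens, Bglap, Ibsp and Alpl lay below their medians over all libraries in these 5. Sp7 had 125 and 120.4 CPM in libraries 408 and 1835, beside a median of 153 CPM. In libraries 494, 1831 and 1580 Sp7 had 0.054, 0.19 and 1.84 CPM. Results are also given without these 5 libraries.

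Vessel RNA was present in every tumour. The 5 defining endothelial markers Pecam1, Cdh5, Tie1, Cldn5 and Esam had no library at 0, and their summed level had a median of 284 CPM in p53R245W/fl libraries (136 to 530.1), 324 CPM in p53R172H/fl libraries (218 to 499) and 270.1 CPM in p53fl/fl libraries (149 to 418). The 4 pericyte markers summed to a median of 616 CPM (387 to 1305), 846 CPM (597 to 1181) and 877 CPM (388 to 1443) in p53R245W/fl, p53R172H/fl and p53fl/fl libraries in that order. The ranges of the 3 genotypes overlapped for both sums. In bulk RNA, fewer cells of a type and less RNA per cell cannot be told apart. Which cells held the RNA of these markers was not tested, so the pericyte sum need not come from pericytes alone.

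Compared per kilobase of exon (RPKM, median over the 34 units), the neuropilin gene Nrp2, a co-receptor of VEGF and semaphorin ligands, had the highest level of the 40 genes, 115 RPKM. The 4 pericyte markers were all among the 6 highest, which is an order of genes and not of cell types. Pdgfrb, the PDGF-B receptor, had 51.6 RPKM, Mcam, an adhesion molecule, 27.4 RPKM, Cspg4, the NG2 proteoglycan, 25.7 RPKM, and Rgs5, a regulator of G-protein signalling, 24.1 RPKM. Among pan-endothelial markers, Cdh5, which encodes VE-cadherin, had 28 RPKM, Plvap, a protein of endothelial diaphragms, 22.6 RPKM and Pecam1 15.3 RPKM, while Sox17, a SOXF transcription factor, had 0.786 RPKM. Receptors other than Nrp2 had from 2.9 RPKM (Flt4, the VEGF-C receptor) to 13.2 RPKM (Nrp1), with Kdr, the main VEGF receptor of endothelium, at 7.23 RPKM. Ligands were lower, with a class median of 3.86 RPKM. Pdgfb had 8.19 RPKM, Pgf (placental growth factor) 6.71 RPKM, Apln (apelin) 6.54 RPKM, Angpt2 5.34 RPKM, Angpt1 3.86 RPKM, Vegfb 3.64 RPKM, Vegfc 1.24 RPKM and Vegfd 0.731 RPKM. The lymphatic markers were among the lowest, with Lyve1, a hyaluronan receptor of lymphatic endothelium and of some macrophages, at 0.882 RPKM and Prox1, the transcription factor that defines lymphatic endothelium, at 0.0595 RPKM. Prox1 had as few as 2 counts and Lyve1 as few as 1 count in a library. Every gene overlapped its neighbours in this order in its range over the units.

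**Figure D1:**
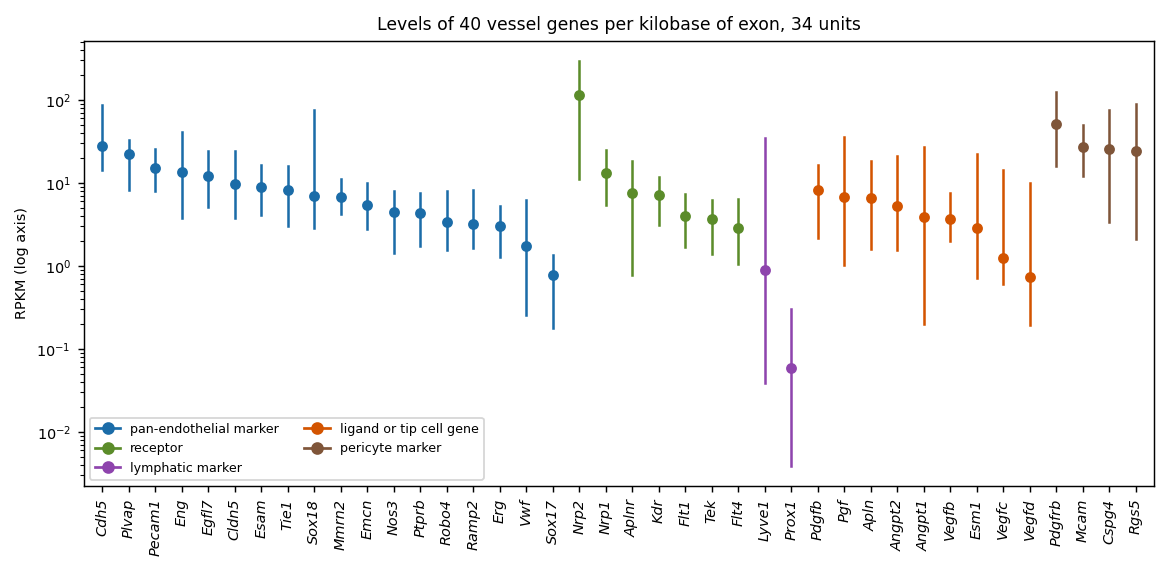
Levels of the 40 vessel genes in RPKM on a log axis, grouped by class and ordered by level within a class. Dots are medians and lines run from the lowest to the highest of the 34 units; Nrp2 has the highest median, at 115 RPKM, and Prox1 the lowest, at 0.0595 RPKM.

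Variation between tumours differed by class. The SD of log2 CPM over the units had a median of 0.528 for the 18 pan-endothelial markers, 0.615 for the 7 receptors, 0.807 for the 4 pericyte markers, 0.953 for the 9 ligands and tip cell genes and 1.44 for the 2 lymphatic markers, beside 0.584 over the 14926 genes with a mean of at least 1 CPM. These spreads were larger than those between matched libraries, for which the class medians of the SD were 0.232, 0.196, 0.208, 0.326 and 0.575 in the same order. Mmrn2, an endothelial matrix glycoprotein, varied least, with an SD of 0.396 and a 2.62-fold range over the units. Lyve1 varied most, with an SD of 1.72. Angpt1, the ligand that activates TEK, ranged 134-fold over the units, with p53R245W/fl libraries at 7.04 to 93.1 CPM (median 21.2), p53R172H/fl libraries at 1.72 to 142 CPM (median 21.6) and p53fl/fl libraries at 0.836 to 105 CPM (median 16.8). The 3 ranges lay largely on top of each other. Among pan-endothelial markers the widest ranges were those of Sox18, at 25.7-fold, and of Vwf, von Willebrand factor, which platelets also hold, at 24.0-fold. Without the 3 units of low Col1a1 the class medians of the SD were 0.485 (pan-endothelial), 0.585 (receptors), 0.78 (pericyte), 0.844 (ligands and tip cell genes) and 1.26 (lymphatic). Lyve1 then had an SD of 1.4, and Angpt1 varied most, with an SD of 1.59. The range of Sox18 fell to 4.4-fold without these units, while that of Vwf stayed at 24.0-fold.

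**Figure D2:**
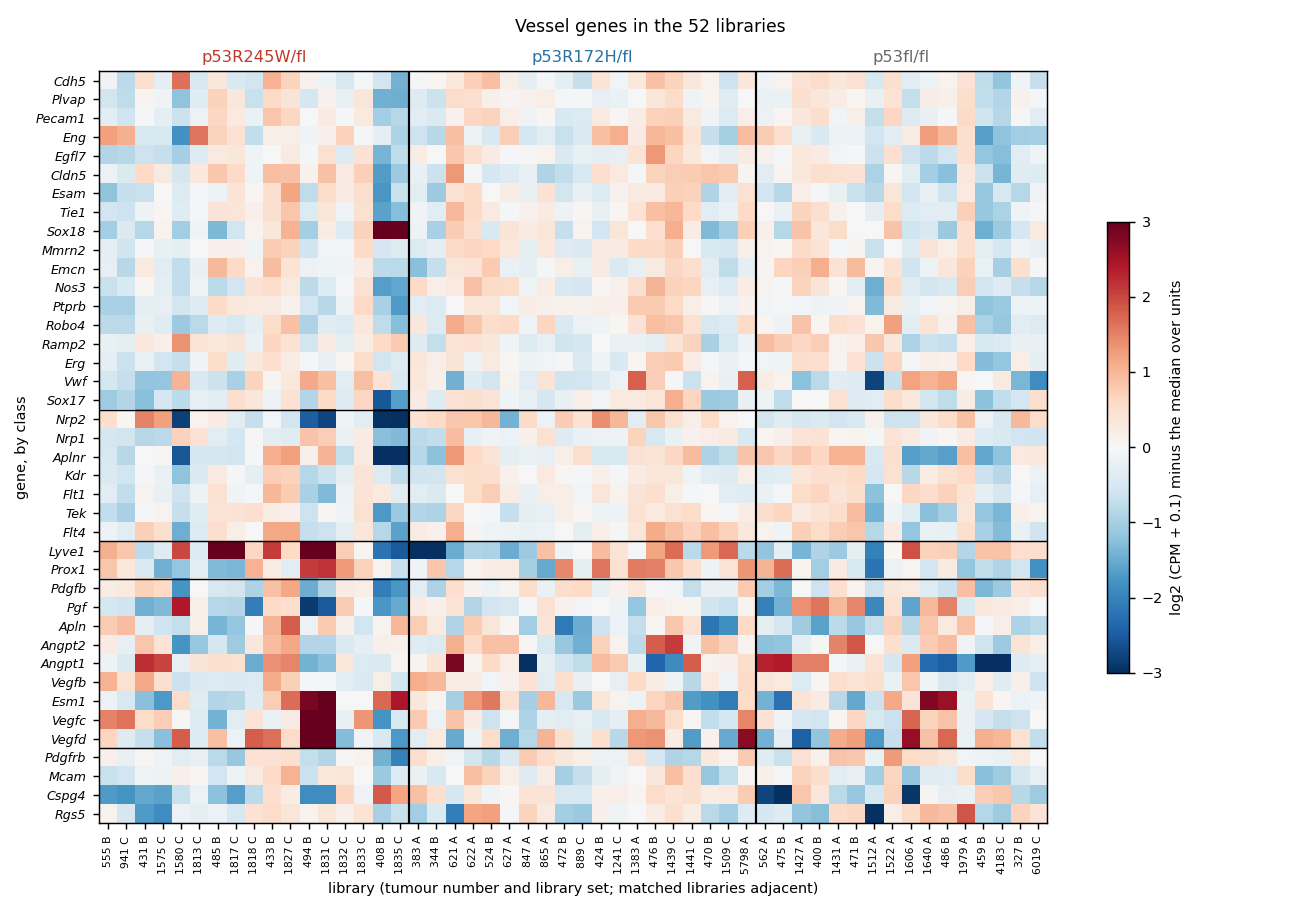
Each of the 40 genes (rows, by class) in each of the 52 libraries (columns, p53R245W/fl left, p53R172H/fl middle, p53fl/fl right), as log2 of CPM plus 0.1 minus the median over units, with colours ending at 3 in either direction. Matched libraries are adjacent and look alike, and Lyve1, Vegfc and Vegfd are deep red in p53R245W/fl libraries 494 and 1831.

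In p53R245W/fl against p53fl/fl tumours, 4 of the 40 genes were called (edgeR, Benjamini-Hochberg adjusted p under 0.05), which is 10% of them beside 17.8% of all 18882 genes tested. Of these, 3 were higher (Lyve1, Vegfc and Sox18, beside 10% of all genes) and 1 was lower (Pdgfrb, beside 7.82%). The median log2 fold change was -0.01 for pan-endothelial markers, -0.18 for receptors, 0.11 for ligands and tip cell genes and -0.17 for pericyte markers, beside 0.04 over all genes. The paired fit called 0 of the 40 (lowest adjusted p 0.565, 0.0159% of all genes called), and 0 were called without the libraries of low Col1a1 (11.8% of all genes called).

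Lyve1 (ENSMUSG00000030787.4, GRCm38 chromosome 7, 110850607 to 110863239) ranged from 0.371 to 109 CPM in p53R245W/fl libraries, with a median of 4.34 CPM, and from 0.561 to 9.95 CPM in p53fl/fl libraries, with a median of 2.39 CPM. The 6 highest p53R245W/fl libraries exceeded every p53fl/fl library, and the others lay within or below the p53fl/fl range. Lyve1 had a log2 fold change of 2.52 (SE 0.61, edgeR adjusted p 0.00345), above the p53fl/fl median in 12 of 17 p53R245W/fl libraries. It was 1.09 (adjusted p 0.13) without matched libraries 1831 and 494, 1.22 (adjusted p 0.0913) without all libraries of low Col1a1 and 0.96 (adjusted p 0.657) in the paired fit. Vegfc (ENSMUSG00000031520.6, chromosome 8, 54077606 to 54187096), the ligand of FLT4 and the main growth factor of lymphatic vessels, ranged from 0.803 to 41.4 CPM in p53R245W/fl libraries (median 3.6) and from 1.83 to 10.4 CPM in p53fl/fl libraries (median 2.71). Only libraries 1831 and 494 exceeded the highest p53fl/fl library. Vegfc had a log2 fold change of 1.13 (SE 0.38, adjusted p 0.0317), with 10 of 17 libraries above the p53fl/fl median, and 0.22 (adjusted p 0.652) without those libraries. It also missed the threshold without p53fl/fl unit 4183 (1.04, adjusted p 0.0566) or 1427 (1.05, adjusted p 0.0655).

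Sox18 (ENSMUSG00000046470.5, chromosome 2, 181669836 to 181671640), a SOXF factor of endothelial and lymphatic development, ranged from 4.41 to 139.5 CPM in p53R245W/fl libraries (median 10.5) and from 4.06 to 20.7 CPM in p53fl/fl libraries (median 11.3). Matched libraries 1835 and 408 had 139.5 and 105 CPM, and the other p53R245W/fl libraries had at most 23.6 CPM. Sox18 had a log2 fold change of 1.05 (SE 0.38, adjusted p 0.0469) although 8 of 17 p53R245W/fl libraries exceeded the p53fl/fl median, and it turned to -0.13 (adjusted p 0.754) without those libraries. It was called in 21 of 34 fits that left out 1 unit each. Pdgfrb (ENSMUSG00000024620.11, chromosome 18, 61045150 to 61085061) ranged from 69.3 to 402 CPM in p53R245W/fl libraries (median 244) and from 178 to 682 CPM in p53fl/fl libraries (median 328). The 6 lowest p53R245W/fl libraries lay below every p53fl/fl library, and 4 of those 6 were of low Col1a1. Pdgfrb had a log2 fold change of -0.53 (SE 0.20, adjusted p 0.0492), with 3 of 17 p53R245W/fl libraries above the p53fl/fl median. Pdgfrb was called in 14 of 34 fits that left out 1 unit each (adjusted p 0.0203 to 0.131) and was -0.30 (adjusted p 0.305) without the libraries of low Col1a1. No other pericyte marker was called, and Rgs5 ranged from 29.9 to 161 CPM in p53R245W/fl libraries (median 97.7) and from 9.48 to 404 CPM in p53fl/fl libraries (median 135). Pecam1 had a log2 fold change of 0.02 (SE 0.16, adjusted p 0.957) and Cdh5 of 0.11 (SE 0.20, adjusted p 0.761), and the sign of either turned when single units were left out. With the mean level of 6 other endothelial markers as a covariate 3 of the 40 genes were called (beside 15.8% of all genes), which were Lyve1 (1.99, adjusted p 0.0268), Cldn5, a tight junction protein of endothelium (0.55, adjusted p 0.0296), and Robo4 (-0.40, adjusted p 0.0466).

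**Figure D3:**
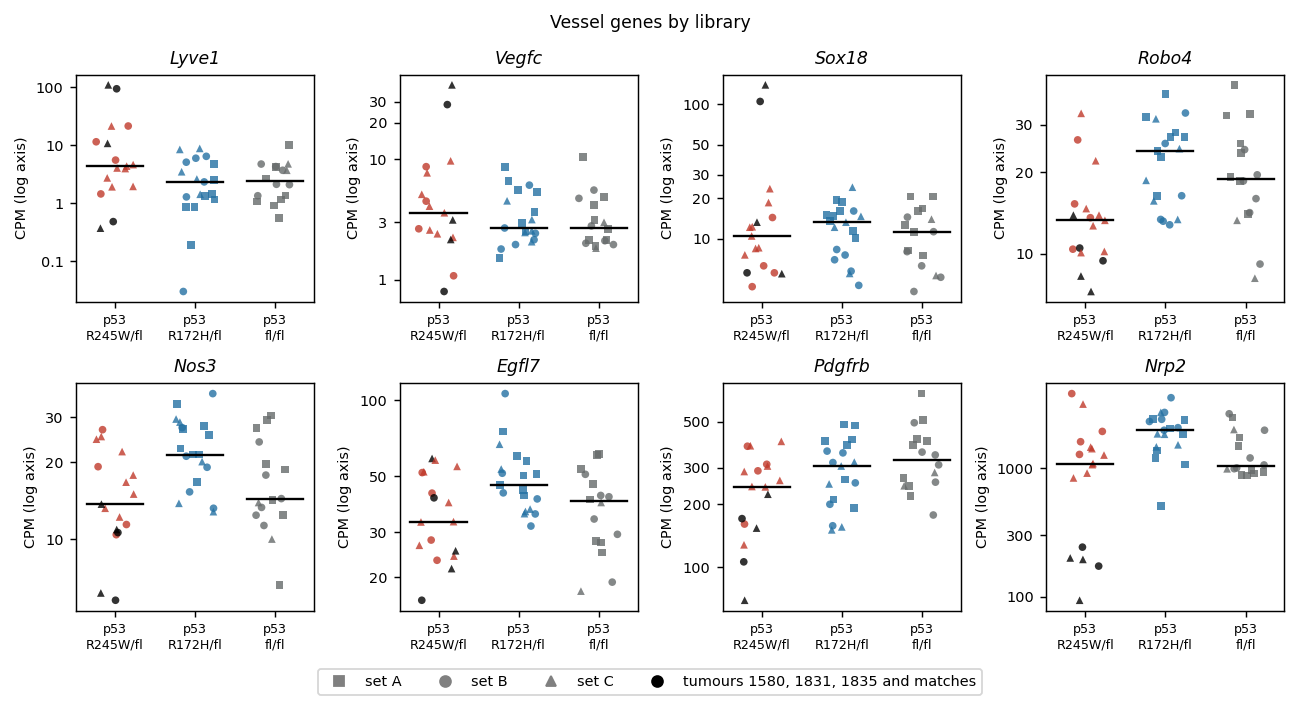
CPM on a log axis of the 7 genes called in either p53R245W/fl comparison, and of Nrp2, in p53R245W/fl (left), p53R172H/fl and p53fl/fl (right) libraries. Points are libraries, with marker shape for the library set and black for the 5 libraries of low Col1a1, and bars are group medians. The highest Lyve1, Vegfc and Sox18 values are black points, while Robo4, Nos3 and Egfl7 lie below the p53R172H/fl median in most p53R245W/fl libraries.

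In p53R245W/fl against p53R172H/fl tumours, 6 of the 40 genes were called, 15% of them beside 30.9% of all genes. Lyve1, Vegfc and Sox18 were again 3 genes that were higher (beside 18.2% of all genes), in a comparison that shares its p53R245W/fl libraries with the one above. The pan-endothelial markers Robo4, Nos3 and Egfl7 were lower (3 genes, beside 12.7% of all genes). The median log2 fold change was -0.16 for pan-endothelial markers (5 of 18 above 0), -0.24 for receptors (0 of 7 above 0), -0.22 for pericyte markers (0 of 4 above 0) and 0.06 for ligands and tip cell genes, beside 0.07 over all genes. The paired fit called 0 of the 40 (lowest adjusted p 0.0923, 1.55% of all genes called), and 0 were called without the libraries of low Col1a1 (22.5% of all genes called). Among markers of other cell types, read against the same 30.9% of all genes, 2 of 7 macrophage, 2 of 4 tested keratinocyte, 1 of 5 T cell and 1 of 6 tested megakaryocyte genes were called higher and 2 of 7 skeletal muscle genes lower, with 0 adipocyte, erythroid or osteoblast genes called. Against p53fl/fl tumours 1 of 7 macrophage and 1 of 5 T cell genes were called higher and 0 of the other lists, beside 17.8% of all genes. None of the markers called in either comparison stayed called without the libraries of low Col1a1 or in the paired fit. The part of these cells in the vessel gene values was not tested.

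Robo4 (ENSMUSG00000032125.20, chromosome 9, 37401897 to 37415115), the endothelial Roundabout receptor that stabilises vessels, ranged from 7.25 to 33.1 CPM in p53R245W/fl libraries (median 13.3) and from 12.8 to 39 CPM in p53R172H/fl libraries (median 24.0). The groups overlapped, but 2 of 17 p53R245W/fl libraries exceeded the p53R172H/fl median. Robo4 had a log2 fold change of -0.68 (SE 0.20, edgeR adjusted p 0.00748) and stayed called in all 34 fits that left out 1 unit each (adjusted p 0.000459 to 0.0204). It was -0.50 (adjusted p 0.0804) without the libraries of low Col1a1, -0.45 within set B (adjusted p 0.394), -0.53 within set C (adjusted p 0.389) and -0.55 (adjusted p 0.167) in the paired fit. Robo4 stayed called on sums of matched libraries, which count each unit once (-0.74, adjusted p 0.0276), and without set B (-0.78, adjusted p 0.0287). Without set B all 11 p53R245W/fl libraries are of set C, beside 8 of set A and 5 of set C for p53R172H/fl. Genotype and set are then confounded in part. With set as a covariate over all libraries Robo4 had -0.41 (adjusted p 0.131). Nos3 (ENSMUSG00000028978.12, chromosome 5, 24364810 to 24384474), endothelial nitric oxide synthase, ranged from 5.76 to 26.8 CPM in p53R245W/fl libraries (median 13.7) and from 12.8 to 37.1 CPM in p53R172H/fl libraries (median 21.4). Nos3 had a log2 fold change of -0.58 (SE 0.19, adjusted p 0.0166), with 4 of 17 p53R245W/fl libraries above the p53R172H/fl median, and it too was called in all 34 such fits (adjusted p 0.00573 to 0.0447). It was -0.36 (adjusted p 0.161) without the libraries of low Col1a1, -0.70 within set B (adjusted p 0.218), -0.38 within set C (adjusted p 0.511) and -0.39 (adjusted p 0.35) in the paired fit. Egfl7 (ENSMUSG00000026921.18, chromosome 2, 26580014 to 26593120), a secreted factor of endothelial cells, ranged from 16.2 to 58.8 CPM in p53R245W/fl libraries (median 33.1) and from 31.8 to 106 CPM in p53R172H/fl libraries (median 46.1). Of the 17 p53R245W/fl libraries, 7 lay below every p53R172H/fl library. Egfl7 had a log2 fold change of -0.46 (SE 0.17, adjusted p 0.0367), with 5 of 17 p53R245W/fl libraries above the p53R172H/fl median. The call was lost without unit 621, 622, 941, 1439, 1575, 1580 or 1835 (-0.33 to -0.45, adjusted p 0.0543 to 0.127), and the paired fit gave -0.43 (adjusted p 0.268). Egfl7 was -0.39 (adjusted p 0.113) without the libraries of low Col1a1, so all 3 genes kept their direction and none its call there. With the mean level of 6 other endothelial markers (Clec14a, Cd93, Ecscr, Icam2, Rasip1 and Myct1) as a covariate, Robo4 (-0.53, adjusted p 0.00354), Nos3 (-0.47, adjusted p 0.0121) and Egfl7 (-0.34, adjusted p 0.0164) stayed called, and so did Lyve1 and Vegfc. Sox18 did not (0.54, adjusted p 0.305), and Ramp2, an endothelial receptor modifier for adrenomedullin, was called higher (0.49, adjusted p 0.033), so that 6 of the 40 genes were called beside 27.9% of all genes. Against p53fl/fl tumours, in the edgeR fit with genotype only, Robo4, Nos3 and Egfl7 were not called. Their log2 fold changes in p53R245W/fl tumours were -0.53 (adjusted p 0.0598), -0.17 (adjusted p 0.595) and -0.06 (adjusted p 0.856) there.

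The bases before the start of Robo4 and Egfl7 are shown because both genes were lower in the same comparison and RefSeq promoters of build GRCm38.p6 matched them. Such promoters matched 23 of the 40 genes. The stretches are the 250 bases before the RefSeq start on the plus strand, chr9:37401722-37401971 for Robo4 and chr2:26580833-26581082 for Egfl7. The annotated gene begins within the Robo4 stretch and before the Egfl7 stretch, since other transcripts start upstream. Capitals mark the letters AGGAAG or CGGAAG on either strand (CTTCCT or CTTCCG as read here), cores that ETS factors, which act in endothelial genes, are known to bind.
Robo4: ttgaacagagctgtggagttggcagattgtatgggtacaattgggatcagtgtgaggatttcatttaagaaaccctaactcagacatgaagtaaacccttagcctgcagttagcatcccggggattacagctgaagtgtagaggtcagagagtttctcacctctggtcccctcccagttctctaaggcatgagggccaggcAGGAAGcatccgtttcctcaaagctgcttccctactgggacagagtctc
Egfl7: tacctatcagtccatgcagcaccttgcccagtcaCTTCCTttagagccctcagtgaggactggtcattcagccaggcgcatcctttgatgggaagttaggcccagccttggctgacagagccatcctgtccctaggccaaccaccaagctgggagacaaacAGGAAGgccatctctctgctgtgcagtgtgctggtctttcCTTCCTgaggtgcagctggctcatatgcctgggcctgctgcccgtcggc
The Robo4 stretch holds 1 match and the Egfl7 stretch 3 matches. The same letters occur in 39.2% of all 32851 promoters of this length, in 8 of the 23 matched vessel genes, and in 5 of 7 matched pan-endothelial genes. A match is a description of the letters only.

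Lyve1 ranged from 0.0332 to 8.76 CPM in p53R172H/fl libraries (median 2.32), and its log2 fold change in p53R245W/fl against p53R172H/fl libraries was 2.48 (SE 0.57, adjusted p 0.00101). Without matched libraries 1831 and 494 it was 1.05 (adjusted p 0.0921). Vegfc ranged from 1.52 to 8.59 CPM in p53R172H/fl libraries (median 2.69), with a log2 fold change of 1.06 (SE 0.36, adjusted p 0.0209) that was 0.16 (adjusted p 0.715) without the same libraries. Sox18 ranged from 4.51 to 24.2 CPM in p53R172H/fl libraries (median 13.3). In this comparison Sox18 had a log2 fold change of 0.91 (SE 0.36, adjusted p 0.0488), which was called in 14 of 34 fits that left out 1 unit each, and was -0.27 (adjusted p 0.402) without libraries 1835 and 408. All 3 genes therefore lost their calls in this comparison without 1 pair of matched libraries, as in the comparison with p53fl/fl tumours.

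Nrp2, singled out after its values were seen, was not called by edgeR. It ranged from 93.8 to 3808 CPM in p53R245W/fl libraries (median 1088), from 510.4 to 3539 CPM in p53R172H/fl libraries (median 1975) and from 879 to 2653 CPM in p53fl/fl libraries (median 1033). The 5 libraries of low Col1a1 had 93.8 to 243 CPM, below every other library. For p53R245W/fl against p53R172H/fl Nrp2 had a log2 fold change of -0.68 (SE 0.31, edgeR adjusted p 0.0816, DESeq2 adjusted p 0.0467), with 2 of 17 p53R245W/fl libraries above the p53R172H/fl median. The paired fit gave -1.04 (SE 0.35, adjusted p 0.0923), the smallest adjusted p of any of the 40 genes in that fit. The edgeR fold change was -0.26 (adjusted p 0.411) without the low Col1a1 libraries. It was -1.10 (adjusted p 0.00357) without unit 1575, the p53R245W/fl unit of highest Nrp2. Leaving out the highest unit of a group must lower that group, so this p is no support for a difference. No other fit that left out 1 unit called Nrp2. For p53R172H/fl against p53fl/fl Nrp2 had a log2 fold change of 0.50 (SE 0.31, adjusted p 0.389), with 18 of 19 p53R172H/fl libraries above the p53fl/fl median.

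In p53R172H/fl against p53fl/fl tumours, 0 of the 40 genes were called, beside 3.75% of all genes. DESeq2 also called 0. At an unadjusted p under 0.05, edgeR found 4 of the 40 (10%), beside 18.6% of all genes. These were the pan-endothelial markers Ptprb, Egfl7, Esam and Nos3. Ptprb, the VE-PTP phosphatase of endothelial junctions, ranged from 43.6 to 99.5 CPM in p53R172H/fl libraries (median 64.1) and from 23.2 to 70.3 CPM in p53fl/fl libraries (median 54.1), with a log2 fold change of 0.40 (SE 0.16, adjusted p 0.168). Esam, a junction adhesion molecule, ranged from 12 to 42.6 CPM in p53R172H/fl libraries (median 28.4) and from 11.7 to 33.4 CPM in p53fl/fl libraries (median 17.9), with a log2 fold change of 0.43 (SE 0.19, adjusted p 0.218). Egfl7 had a log2 fold change of 0.40 (SE 0.18, adjusted p 0.196) and Nos3 of 0.41 (SE 0.19, adjusted p 0.23). The groups overlapped for all 4 genes. With the endothelial covariate 1 of the 40 genes was called (beside 3.69% of all genes), Egfl7 (log2 fold change 0.40, adjusted p 0.0275), and without the libraries of low Col1a1, which belong to neither group here, 0 were (beside 6.1%). Pecam1 had a log2 fold change of 0.16 (SE 0.16, adjusted p 0.628) and Cdh5 of 0.21 (SE 0.20, adjusted p 0.609). Across the 18 pan-endothelial markers the median was 0.21 and 16 values were above 0, beside a median of -0.02 over all genes. Receptors had a median of 0.01, ligands and tip cell genes of 0.07 and pericyte markers of -0.03. The paired fit called 0 of the 40 (lowest adjusted p 0.371, 0.0106% of all genes called), with a pan-endothelial median of 0.23. The sum of 7 skeletal muscle markers also differed, with 58.8 to 11093 CPM in p53R172H/fl libraries (median 1095) and 14.1 to 1858 CPM in p53fl/fl libraries (median 144), and 5 of the 7 markers were called higher. These 5 stayed called without the libraries of low Col1a1, which is no check on the calls since neither group holds such libraries. None of the 5 markers was called in the paired fit (adjusted p 0.139 to 0.283) or by edgeR on sums of matched libraries (adjusted p 0.165 to 0.23). The part of muscle RNA in the endothelial values was not tested.

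**Figure D4:**
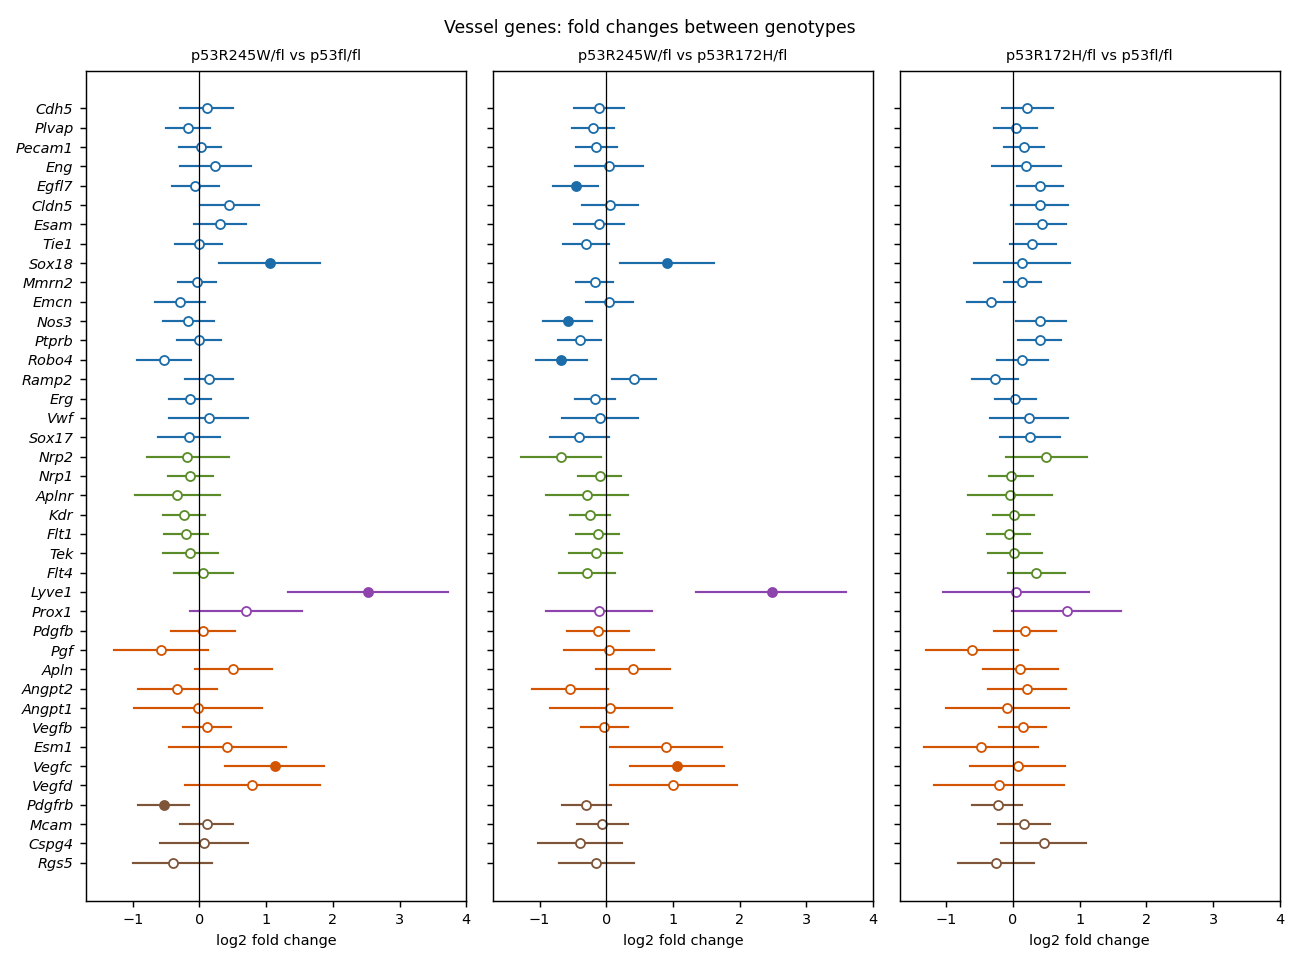
Log2 fold changes of the 40 genes in p53R245W/fl against p53fl/fl (left), p53R245W/fl against p53R172H/fl (middle) and p53R172H/fl against p53fl/fl (right) tumours, coloured by class as in the plot of levels. Lines are 95% intervals from the edgeR standard errors, and filled dots were called over all genes; 4, 6 and 0 dots are filled.

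The genes without a call are described by their levels. Kdr ranged from 28.4 to 109 CPM in p53R245W/fl libraries (median 54.0), from 43.2 to 93.4 CPM in p53R172H/fl libraries (median 71.7) and from 36.4 to 99.3 CPM in p53fl/fl libraries (median 70.3). Vegfb, a ligand of FLT1, had group medians of 5.61, 6.84 and 6.24 CPM in p53R245W/fl, p53R172H/fl and p53fl/fl libraries, and all libraries lay between 3.22 and 12.9 CPM. Vegfd, like VEGF-C a ligand of FLT4, had medians of 1.64, 1.95 and 1.99 CPM in that order, with 18 and 30.1 CPM in libraries 1831 and 494 and at most 12.1 CPM elsewhere. Pgf, another ligand of FLT1, had medians of 10.8 CPM in p53R245W/fl libraries (2.59 to 104), 19.3 CPM in p53R172H/fl libraries (8.69 to 26.2) and 23.7 CPM in p53fl/fl libraries (4.74 to 59.4). The highest and the lowest Pgf values both lay in p53R245W/fl libraries. Angpt2, a context-dependent antagonist of TEK, had medians of 16.7, 21.2 and 19.8 CPM, and Pdgfb of 34.6, 32.8 and 30.2 CPM, in the same order. Apln had medians of 22.3, 21.5 and 13.3 CPM, and its receptor gene Aplnr of 19.9, 32.1 and 37.3 CPM. Esm1, a proteoglycan of tip cells, had medians of 6.0, 6.45 and 5.95 CPM. Among the other receptors, Flt1, a VEGF receptor that also acts as a decoy, had medians of 48.3, 58.2 and 62.3 CPM, Tek of 16.7, 17.6 and 19.0 CPM and Nrp1, a VEGF co-receptor, of 102, 115 and 135 CPM in p53R245W/fl, p53R172H/fl and p53fl/fl libraries in that order. Among pan-endothelial markers, Eng, the TGF-beta co-receptor endoglin, had medians of 61.2, 49.2 and 47.8 CPM, and Erg, an ETS transcription factor of endothelium, of 9.24, 10.4 and 11.4 CPM. Tie1, a receptor-like kinase that works with TEK, had 38.6, 44.0 and 38.1 CPM, and Emcn 26.7, 25.3 and 38.1 CPM. Plvap had 38.2, 45.1 and 48 CPM, Vwf 22.6, 24.9 and 25.6 CPM, Sox17 2.82, 4.27 and 3.15 CPM and Mmrn2 25.2, 31.9 and 27.2 CPM. Of the pericyte markers, Cspg4 had 177, 373 and 235 CPM and Mcam 83.5, 90.9 and 75.5 CPM. For each of these genes the ranges of the 3 genotypes overlapped.

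Units 1831, 1835 and 1580, all p53R245W/fl, together held the highest value of the 34 units for 10 of the 40 genes and the lowest for 19 of the 40, and were examined after their values were seen. Libraries 1831 and 494 had the highest Lyve1 (109 and 93.3 CPM), Vegfc (41.4 and 28.4 CPM), Esm1 (50.4 and 43.5 CPM) and Prox1 (2.6 and 2.46 CPM) of all libraries, in that order of libraries. The next highest unit had 21.3 CPM of Lyve1 and 10.4 CPM of Vegfc. Flt4, the receptor of VEGF-C, had 15.4 and 14.7 CPM there, below its median of 24.7 CPM over libraries. Pecam1 (112 and 95.2 CPM) and Cdh5 (106 and 128 CPM) were near their medians of 94.2 and 119.7 CPM over the 52 libraries. The 7 macrophage markers summed to 3399.9 and 3505 CPM in these libraries and to 330.5 to 1674 CPM in the other 47 libraries, with Mrc1, the mannose receptor, at 1501 and 1652 CPM. No macrophage marker was at 0 in any library. The T cell genes Cd8a (8.72 and 6.04 CPM) and Cd3e (3.29 and 4.64 CPM) and the platelet gene Pf4 (136 and 68.6 CPM) were also above the other 47 libraries, which had at most 2.81 CPM of either T cell gene and 32.2 CPM of Pf4. Cd3d and Trac were above those libraries too, but Cd4 and the sum of the T cell markers were not. Of the megakaryocyte and platelet markers only Pf4 was above them, and Itga2b, Gp9, Gp1bb, Ppbp, Gp6 and Treml1 were not. The 5 T cell markers summed to 27.9 and 35.8 CPM in libraries 1831 and 494. In the other 47 libraries they summed to 1.03 to 36 CPM (median 7.97). The 7 megakaryocyte and platelet markers summed to 141 and 74 CPM, beside at most 41.3 CPM in the other 47 libraries, and most of that sum was Pf4. The part of macrophages, T cells and platelets in the Lyve1 and Vegfc levels was not tested.

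In libraries 1835 and 408, Sox18 had 139.5 and 105 CPM and Cspg4 690.1 and 1101 CPM, the highest of all libraries for both genes, while 7 of the 18 pan-endothelial markers, 3 of the 7 receptors and 1 of the 4 pericyte markers were at the lowest level of the 34 units. Pecam1 had 52.1 and 47 CPM, and the 5 endothelial markers summed to 136 and 152 CPM. Keratinocyte markers, of which 5 of 6 are in the table, summed to 61.9 and 64.0 CPM there and to at most 25.1 CPM in the other 47 libraries. Most of that sum was Krt14 (42.0 and 24.6 CPM) and Cdh1 (14.9 and 31.7 CPM). Krt5 (0.301 and 0.214 CPM) and Trp63 (2.28 and 2.97 CPM) did not exceed the other 47 libraries, which had up to 8.03 and 14.6 CPM of them. The part of keratinocytes in the Sox18 and Cspg4 levels was not tested. Library 1580 had the highest Cdh5, 369 CPM, with Pecam1 at 60.7 CPM, Tie1 at 31 CPM and Kdr at 28.4 CPM, so the endothelial markers did not move together in it. Its Pgf, 104 CPM, was the highest of the 34 units. In p53R245W/fl against p53fl/fl tumours Pgf had a log2 fold change of -0.58 (edgeR adjusted p 0.278) with all libraries. Without library 1580 it was -1.05 (adjusted p 0.0199). Leaving out the highest value of a group must lower that group, so this p is no support for a difference.

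The relation between genes over tumours was examined for 18 pairs fixed by name, over the 34 units, with two-sided permutation tests of 100000 resamples adjusted over the 18 pairs. Pecam1 and Cdh5, both markers of endothelial junctions, rose and fell together, with Pearson r 0.59 (p 0.00019, adjusted 0.0034) and Spearman correlation 0.71 (p 2e-05, adjusted 0.00036). Without the 2 units farthest from the median of Pecam1 r was 0.49. Without the 3 units of low Col1a1 r was 0.87, and r was 0.90, 0.91 and 0.50 within sets A, B and C. Within genotypes r was 0.23 over p53R245W/fl, 0.93 over p53R172H/fl and 0.92 over p53fl/fl units. Tumour 1580 is the unit that lies far from the others. Cdh5 and Kdr had r 0.38 (p 0.026, adjusted 0.12) and Spearman 0.60 (p 0.00032, adjusted 0.0029), and r was 0.76 without the 2 farthest units, 0.79 without the units of low Col1a1, and 0.80, 0.72 and 0.19 within sets A, B and C. Cdh5 and Emcn, an endothelial sialomucin, had r 0.39 (p 0.023, adjusted 0.12) and Spearman 0.46 (p 0.0075, adjusted 0.034), with r 0.60 without the 2 farthest units and 0.56, 0.65 and 0.38 within the sets.

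Pairs of a pericyte marker with Cdh5 or with another pericyte marker did not pass the threshold. Cdh5 and Rgs5 had r 0.26 (p 0.13, adjusted 0.34; Spearman 0.23, p 0.19) with r 0.28 without the 2 farthest units, and r 0.32, 0.39 and 0.41 within sets A, B and C. Cdh5 and Pdgfrb had r 0.09 (p 0.61, adjusted 0.8; Spearman 0.06, p 0.74), with r 0.28 over p53R245W/fl, -0.62 over p53R172H/fl and 0.49 over p53fl/fl units. Rgs5 and Pdgfrb had r 0.14 (p 0.42, adjusted 0.69; Spearman 0.26, p 0.14), and Rgs5 and Cspg4 had r 0.01 (p 0.95, adjusted 0.95; Spearman -0.09, p 0.6). Without the 2 farthest units these 3 pairs had r -0.03, 0.13 and -0.04. Of the ligand and receptor pairs, only Pdgfb and Pdgfrb passed the threshold, with r 0.57 (p 0.0004, adjusted 0.0036) and Spearman 0.54 (p 0.0013, adjusted 0.0079). Without the 2 units farthest from the median of Pdgfb r was 0.45, within sets A, B and C it was 0.34, 0.64 and 0.60, and without the units of low Col1a1 it was 0.39 (adjusted p 0.14), so that this call rests in part on those units. The other ligand pairs did not pass, with r 0.35 for Angpt1 and Tek (p 0.044, adjusted 0.16; Spearman 0.25, p 0.14), 0.29 for Pgf and Flt1 (p 0.1, adjusted 0.3; Spearman 0.16, p 0.37), 0.18 for Angpt2 and Tek (p 0.31, adjusted 0.56; Spearman 0.15, p 0.38), 0.03 for Vegfc and Flt4 (p 0.88, adjusted 0.94; Spearman 0.15, p 0.38), -0.23 for Vegfd and Flt4 (p 0.19, adjusted 0.42; Spearman -0.15, p 0.39) and 0.03 for Apln and Aplnr (p 0.89, adjusted 0.94; Spearman 0.08, p 0.65). Lyve1 and Prox1 had r 0.21 (p 0.24, adjusted 0.48; Spearman 0.13, p 0.45), and Cdh5 had r 0.09 with Lyve1 (p 0.62, adjusted 0.8; Spearman -0.07, p 0.68), 0.12 with Esm1 (p 0.5, adjusted 0.75; Spearman 0.24, p 0.17) and 0.05 with Cspg4 (p 0.78, adjusted 0.94; Spearman 0.10, p 0.56). Without the 2 farthest units the r of these 10 pairs lay between -0.22 (Vegfd and Flt4) and 0.34 (Vegfc and Flt4). A p that misses the threshold does not show that 2 genes vary apart.

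**Figure D5:**
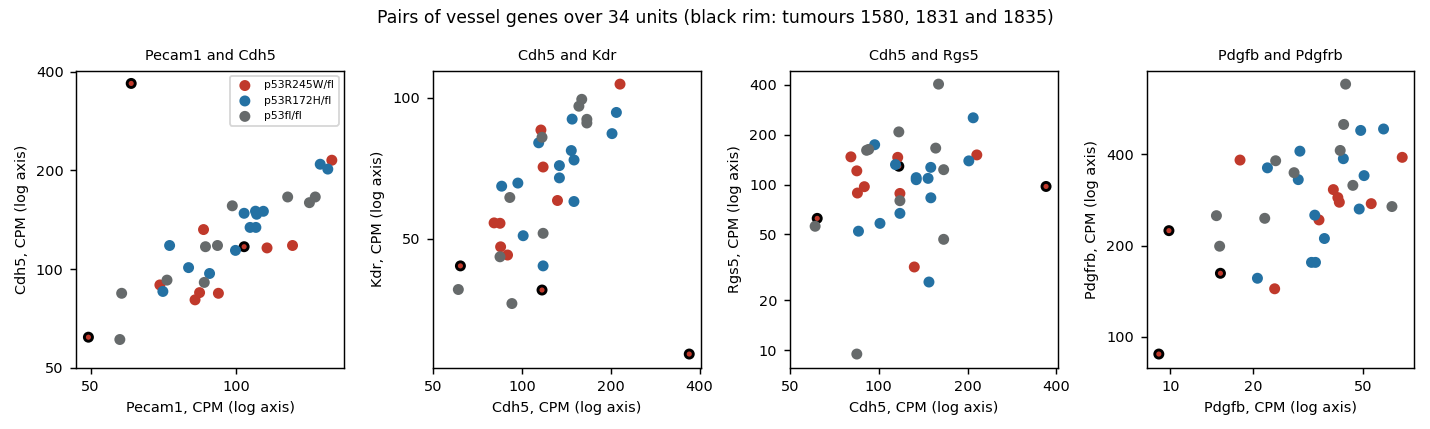
CPM of 4 pairs of vessel genes over the 34 units, both axes log, with red for p53R245W/fl, blue for p53R172H/fl and grey for p53fl/fl units and a black rim for units 1580, 1831 and 1835. Pecam1 and Cdh5 lie along a line except for 1 unit, tumour 1580, while Cdh5 and Rgs5 (r 0.26) scatter widely.

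The library set itself went with many of these genes. In matched libraries, compared within units by edgeR, set B differed from set C (12 pairs) for 23 of the 40 genes (57.5%, beside 46.6% of all 19880 genes tested), 14 higher (beside 22.5%) and 9 lower (beside 24.1%). Set B differed from set A (6 pairs) for 10 of the 40 (25%, beside 18.4% of all genes), 3 higher (beside 9.08%) and 7 lower (beside 9.33%). In set B against set C the log2 fold change was 1.02 for Vegfd (higher in 12 of 12 pairs, adjusted p 7.24e-07) and 0.54 for Cdh5 (12 of 12 pairs, adjusted p 1.57e-09), and it was -0.72 for Sox18 (higher in 0 of 12 pairs, adjusted p 3.34e-09) and -0.69 for Esam (0 of 12 pairs, adjusted p 3.48e-09). In set B against set A it was 0.80 for Vegfd (6 of 6 pairs, adjusted p 0.00565) and -0.76 for Sox18 (0 of 6 pairs, adjusted p 7.63e-06). Robo4, Nos3 and Egfl7 had -0.03, 0.01 and -0.09 against set C (adjusted p 0.762, 0.925 and 0.353), and -0.41, -0.25 and -0.08 against set A (adjusted p 0.00716, 0.07 and 0.699). Since set A holds 0 p53R245W/fl libraries, genotype and set cannot be told apart there. Robo4, Nos3 and Egfl7 in p53R245W/fl against p53R172H/fl tumours had -0.41 (adjusted p 0.131), -0.46 (adjusted p 0.102) and -0.37 (adjusted p 0.162) with set as a covariate. With set as a covariate the number called was 1 of 40 (Vegfc; 5.32% of all genes) for p53R245W/fl against p53fl/fl, 3 of 40 (Lyve1, Sox18 and Vegfc; 22.8% of all genes) for p53R245W/fl against p53R172H/fl and 0 of 40 (4.82% of all genes) for p53R172H/fl against p53fl/fl.

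A wider list held 32 other endothelial genes, all tested. In p53R172H/fl against p53fl/fl tumours 1 of 32 was called (beside 3.75% of all genes). Dll4, the Notch ligand of tip and arterial endothelial cells, had 8.57 to 40.5 CPM in p53R172H/fl libraries (median 22.5) and 4.91 to 24.5 CPM in p53fl/fl libraries (median 12.1), with a log2 fold change of 0.71 (SE 0.19, adjusted p 0.0268; 0.76 with adjusted p 0.21 in the paired fit). Of the 32, 3 were called in p53R245W/fl against p53fl/fl tumours (beside 17.8% of all genes), with Tspan7, a tetraspanin, and Gpihbp1, the capillary anchor of lipoprotein lipase, higher and Arhgef15, an endothelial guanine nucleotide exchange factor, lower. Their log2 fold changes were 1.19 (SE 0.32, adjusted p 0.00716), 0.54 (SE 0.19, adjusted p 0.0424) and -0.71 (SE 0.19, adjusted p 0.00848). Without the libraries of low Col1a1, Tspan7 (1.04, adjusted p 0.0295) and Gpihbp1 (0.66, adjusted p 0.0231) stayed called and Arhgef15 (-0.49, adjusted p 0.0892) did not. In p53R245W/fl against p53R172H/fl tumours 4 of 32 were called (beside 30.9% of all genes). Arhgef15 and Notch4, an endothelial Notch receptor, were lower, with log2 fold changes of -0.86 (SE 0.19, adjusted p 0.000599) and -0.91 (SE 0.21, adjusted p 0.000837), and both stayed called without the libraries of low Col1a1 (-0.65, adjusted p 0.013 and -0.65, adjusted p 0.0193). Notch4 had 10.1 to 64.1 CPM in p53R245W/fl libraries (median 23.8) and 28.4 to 94.7 CPM in p53R172H/fl libraries (median 49.7), and the paired fit gave -0.69 (adjusted p 0.0643). Tspan7 and Cd34 were higher, with 0.82 (SE 0.30, adjusted p 0.0321) and 0.80 (SE 0.30, adjusted p 0.0368). Without the libraries of low Col1a1 Tspan7 had 0.66 (adjusted p 0.115) and Cd34 -0.09 (adjusted p 0.781). None of these genes passed the threshold in the paired fit.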

How the data were processed

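RNA of mouse osteosarcomas was isolated and sequenced as 52 stranded mRNA libraries, per the labels' protocols. The authors deposited raw read counts per Ensembl gene for all samples in 1 table, with no normalization, and named STAR and the build GRCm38 per the submitters' processing notes; no source used here names the counting program or the annotation. Identifiers were joined without version numbers to GENCODE M21, which gave 20668 of 20730 a symbol. Total counts per library were 21596798 to 67223388, and the lowest gene total was 260.

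Genotype groups came from the labels. edgeR 4.0.16 (R 4.3.3) fitted all 52 libraries with genotype only, TMM library sizes, robust quasi-likelihood F tests and filterByExpr with a minimum count of 10, which kept 18882 genes. Calls are at a Benjamini-Hochberg adjusted p under 0.05 over all genes, and SE is the size of the log2 fold change divided by the root of its F value. CPM used TMM sizes and a prior count of 2 on the log2 scale. RPKM divides CPM by the union exon length.

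Alternatives were DESeq2 1.42.0, RLE factors, no filter, a minimum count of 50, library set as a covariate, sums of matched libraries, fits within sets, without set B, without low Col1a1, without each unit, an endothelial covariate, and the paired fit, in which limma 3.58.1 voom takes library set as a covariate and matched libraries as a block (estimated correlation 0.857). Numbers in the labels pair no samples across groups; matched libraries share a genotype, so the block compares nothing within pairs. The comparison of set B with matched libraries was added after seeing the data. Tests were tested on simulated data. Nothing states that libraries come from separate animals, so p-values measure the spread between these libraries.

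The members, classes, wider lists, gene pairs and tests were chosen with earlier results of these data known. All members are named by class or value; fold changes with SE and adjusted p are given for called members and for Pecam1 and Cdh5, levels for Kdr, Rgs5 and the ligands, and from each wider list up to 4 called genes by smallest p. Nrp2, Ptprb, Esam and the values of single tumours were chosen after their values were seen.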

Additional observations from a re-analysis of the deposited data

How the results depend on the processing

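The number of vessel genes called moved with the treatment of libraries. For p53R245W/fl against p53fl/fl tumours the 4 called genes became 1 with library set as a covariate, 0 on summed matched libraries, 0 in the limma voom fit with the replicate block, 0 within set B, 0 within set C, 1 without set B and 0 without the libraries of low Col1a1, and were 1 to 5 when 1 unit was left out. For p53R245W/fl against p53R172H/fl tumours the 6 called genes became 3 with set as a covariate, 2 on summed libraries, 0 with the block, 0 within set B, 0 within set C, 2 without set B and 0 without low Col1a1, and were 5 to 8 when 1 unit was left out. For p53R172H/fl against p53fl/fl tumours the count was 1 with the endothelial covariate and 0 in all other fits; the block moved no call there. Over all genes the first comparison called 1783 of 19726 genes on summed libraries, 2134 of 18959 without set B, 4 of 18207 within set B and 0 of 20220 within set C, and the second 3000, 2726, 615 and 3 in that order, so where hardly any gene was called a count of 0 says nothing of vessel genes. Fewer libraries within a set and fewer independent samples in the block also lower the power, and the cause of each lost call was not tested. Within set C, p53R245W/fl libraries also differ from the other genotypes in the lane field of the column names, tumour 1580 excepted.

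Directions turned in few cases. Pecam1 in p53R245W/fl against p53fl/fl was 0.00 at a minimum count of 50, -0.05 on summed libraries and -0.01 without set B, and -0.11 to 0.11 when 1 unit was left out; Cdh5 was -0.07 to 0.20. Sox18 was -0.04 (against p53fl/fl) and -0.19 (against p53R172H/fl) without low Col1a1, and -0.13 to 1.18 and -0.27 to 1.04 when 1 unit was left out. Rgs5 in p53R245W/fl against p53fl/fl was 0.05 within set C. Without the units of low Col1a1, r turned to -0.03 for Cdh5 and Pdgfrb and -0.15 for Cdh5 and Lyve1. DESeq2, RLE factors and the filters turned no called fold change. Prox1, Lyve1 and Vegfd were at a few counts in some libraries, which limits their precision.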

Other observations

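Wider lists of mural cell genes (13) and of angiogenesis genes (19), all tested, held the following calls. Of the 13 mural genes, 3 were called in p53R245W/fl against p53fl/fl tumours, all higher, beside 17.8% of all genes. Acta2, the smooth muscle actin of contractile mural cells and of myofibroblasts, had 17.7 to 964 CPM in p53R245W/fl libraries (median 109.8) and 9.58 to 204 CPM in p53fl/fl libraries (median 28.7), with a log2 fold change of 1.64 (SE 0.45, edgeR adjusted p 0.00909). It was 1.72 (adjusted p 0.0181) without the libraries of low Col1a1 and 1.3 (adjusted p 0.356) in the paired fit. Tagln, the contractile protein transgelin, had 1.66 (SE 0.44, adjusted p 0.00688), and 1.19 (adjusted p 0.0436) without those libraries. Higd1b, a mitochondrial protein gene of pericytes, had 1.36 (SE 0.45, adjusted p 0.0298), with medians of 0.77 CPM in p53R245W/fl and 0.328 CPM in p53fl/fl libraries. Its level was near the floor, and it lost its call without the libraries of low Col1a1 (0.84, adjusted p 0.249). Beside these rises Pdgfrb was lower in the same comparison. In p53R245W/fl against p53R172H/fl tumours 2 of 13 were called, beside 30.9% of all genes. Tagln had 1.16 (SE 0.41, adjusted p 0.0261) and Ndufa4l2, a mitochondrial protein gene of pericytes, 2.62 (SE 0.66, adjusted p 0.00233), which were 0.69 (adjusted p 0.191) and 0.66 (adjusted p 0.332) without low Col1a1. In p53R172H/fl against p53fl/fl tumours 0 of the 13 were called by edgeR.

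Of the 19 angiogenesis genes, Ccn2, a matricellular protein also called CTGF, was lower in both missense groups than in p53fl/fl tumours, which both comparisons share, and was the 1 of 19 called in each (beside 17.8% and 3.75% of all genes). It had 26.5 to 290.3 CPM in p53R245W/fl libraries (median 130.3), 69.8 to 264 CPM in p53R172H/fl libraries (median 129.8) and 35.7 to 1374 CPM in p53fl/fl libraries (median 183). The log2 fold changes were -1.24 (SE 0.37, adjusted p 0.0145) and -1.19 (SE 0.35, adjusted p 0.0435), and the paired fit gave -0.60 (adjusted p 0.586) and -0.48 (adjusted p 0.765). Without the libraries of low Col1a1 they were -0.94 (adjusted p 0.0959) and -1.18 (adjusted p 0.0261), so the first lost its call. Those libraries belong to neither group of the second comparison, so that fit is no check on its call. In p53R245W/fl against p53R172H/fl tumours 4 of 19 were called (beside 30.9% of all genes), with Hgf (1.53, adjusted p 0.0103) and Thbs2 (1.4, adjusted p 0.0135) higher and Ccn1 (-0.82, adjusted p 0.00375) and Pdgfd (-1.05, adjusted p 0.0222) lower. Without low Col1a1, Thbs2 (1.16, adjusted p 0.0442) and Ccn1 (-0.64, adjusted p 0.0362) stayed called, and Hgf (0.41, adjusted p 0.463) and Pdgfd (-0.74, adjusted p 0.135) did not. No gene of either list passed the threshold in the paired fit.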
